A study of Mus musculus with 2 samples.

Results

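The genes described here are the cytokine receptors that signal through gp130 (Il6st, Lifr, Il6ra, Il11ra1 and Osmr), the kinase Jak1, the transcription factor Stat3, its inhibitor Socs3, and the C/EBP transcription factors Cebpb and Cebpd. They were chosen by name as members of one pathway, 10 genes in all. The platform annotation assigned 23 probe sets to 9 of them, out of 12393 genes that had their own probe set, and named none for Il11ra1, so that gene was not analysed here. The tissue was the stretch of mouse uterus that lies between implantation sites, taken on day 8 of pregnancy. Uteri of Cbs null females and of control females gave 1 Affymetrix array each, 2 arrays in all, from 4-month-old mice of mixed C57Bl/6J and OLA129 background. Cbs encodes cystathionine beta-synthase, an enzyme that removes homocysteine. The labels call the mutants homozygous Cbs deficient without naming the altered part of the gene. They give the other group only as control, and do not say whether a sample held 1 uterus or a pool. Since each group had a single array, nothing below could be tested or checked against a replicate.

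Cytokines of the interleukin-6 family bind a receptor chain of their own, which then joins gp130, the product of Il6st. The paired chains activate JAK kinases, JAK1 above all, and these phosphorylate STAT3, which enters the nucleus and switches on target genes. Socs3 is such a target, and its protein binds gp130 and JAK to shut the signal down. In the mouse uterus, leukaemia inhibitory factor (LIF) from the glands acts on the luminal epithelium through Lifr and Stat3, and is needed for the blastocyst to implant. Interleukin-11, acting through Il11ra1, and the transcription factor C/EBP beta are both needed for stromal cells to become decidua. The tissue between implantation sites carries no embryo and forms less decidua than the sites themselves.

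Promoter windows from RefSeq, build GRCm38.p6, covering 250 bases before and 50 after each start, were found for 9 of the 10 genes (all but Cebpd), in 11 windows. Both strands were searched for TTCNNNGAA, the palindromic core that STAT dimers bind, for TGACG, the core bound by CREB-type factors, and for TTGCNNAA, a C/EBP-type core. These motifs do not overlap each other in the stretches printed. TTCNNNGAA was present in the window of Socs3 and in no other window of the group, against 8.30% of all 32851 windows. TGACG was present in windows of Cebpb, Il6ra and Jak1, against 20.8% of all windows, and TTGCNNAA in none of the 11, against 10.8% of all windows. A match is a description of the letters only and does not show binding. The 250 bases before the Socs3 start, chr11:117969367-117969616 on the minus strand, are given because they hold the STAT core, and the last 200 bases before the Cebpb start, chr2:167688715-167688914 on the plus strand, because they hold the TGACG core 3 times, in either orientation. Capitals mark the motif in each.
Socs3: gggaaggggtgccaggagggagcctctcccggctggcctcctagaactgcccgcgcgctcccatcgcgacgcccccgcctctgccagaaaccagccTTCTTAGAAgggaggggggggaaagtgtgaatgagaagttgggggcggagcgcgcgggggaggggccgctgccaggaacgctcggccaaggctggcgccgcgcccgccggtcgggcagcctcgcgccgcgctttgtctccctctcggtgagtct
Cebpb: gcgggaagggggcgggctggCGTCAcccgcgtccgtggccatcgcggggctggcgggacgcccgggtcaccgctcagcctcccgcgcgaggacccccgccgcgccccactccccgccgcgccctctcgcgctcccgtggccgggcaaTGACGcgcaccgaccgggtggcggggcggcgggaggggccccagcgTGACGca
The Socs3 match, TTCTTAGAA, lies at bases -154 to -146 from the annotated start. In the Cebpb stretch, TGACG lies at -53 to -49 and at -7 to -3, and its reverse complement at -180 to -176.

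Expression of the pathway differed little between the Cbs null and the control uterus. None of the 9 measured genes was 1.5-fold apart, a limit passed by 7.01% of all 8407 measured genes (3.62% higher and 3.39% lower in the Cbs null uterus). At that background, a count of 0 among 9 genes is not a result about this pathway. None was 2-fold apart either, against 1.51% of measured genes. Log2 ratios of Cbs null over control ran from -0.12 for Cebpb to 0.42 for Socs3, with a median of 0.09 beside 0.02 over all measured genes. All 9 genes lay above the floor on both arrays, so the filter did not choose their direction. The floor was a signal of 43.2, a chosen percentile of all signals and not a limit found from replicates. Weaker signals were treated as having no reliable order. A gene counted as measured when it exceeded the floor on at least 1 array. Of the 23 probe sets, 17 lay above the floor on both arrays, 2 on 1 array and 4 on neither. The error of a log2 ratio within these arrays was 0.22 (SD), estimated in 2757 genes. It compares the 2 brightest probe sets of a gene, both above the floor on both arrays. It does not include variation between mice, or between separate labellings and hybridisations, and was not estimated separately for dim probe sets. Of the 9 genes, 8 were within 1 such SD of 0, as were 60.7% of all measured genes, and none was beyond 2.

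**Figure D1:**
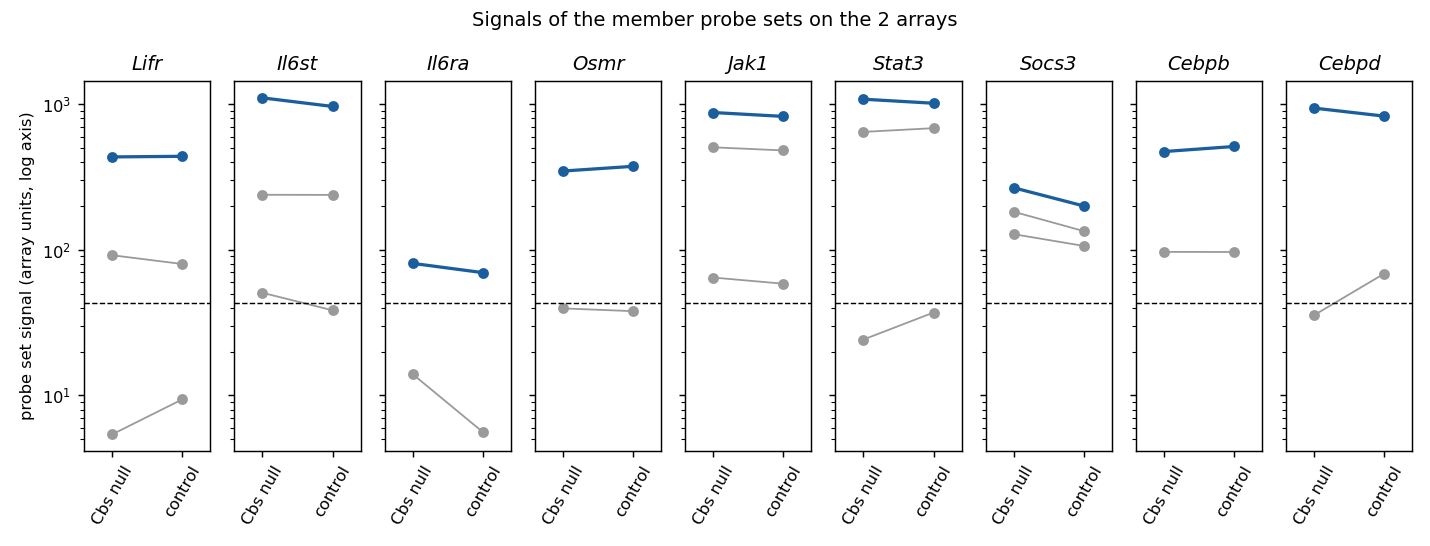
Signal of each of the 23 probe sets on a log axis, with Cbs null left and control right in each panel. Blue marks the probe set that stands for the gene, grey the others, and the dashed line the floor of 43.2. The blue lines run nearly level, and the steepest of them is that of Socs3, at 266.8 in Cbs null and 200.0 in control.

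Among the receptors, gp130 itself was well above the floor in both uteri. Its brightest Il6st probe set, 1452843_at, read 1105.7 in the Cbs null uterus and 965.1 in the control uterus, a log2 ratio of 0.20. The probe set 1460295_s_at read 238.8 in Cbs null and 238.3 in control, and hardly differed. The dimmest, 1421239_at, read 50.7 in Cbs null and 38.4, below the floor, in control. So the small excess in the brightest probe set was not matched by the next brightest, and the dimmest gives only a lower bound of 1.17-fold.

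Lifr, the LIF-binding chain, read 434.6 in the Cbs null uterus and 438.7 in the control uterus in its brightest probe set, a log2 ratio of -0.01. Its other probe set above the floor, 1425107_a_at, read 91.8 in Cbs null and 79.9 in control (0.20), and the last was below the floor on both arrays, at 5.4 in Cbs null and 9.4 in control. Of all measured genes, 95.3% were at least as far apart as Lifr in its brightest probe set. So Lifr hardly differed in its brightest probe set, and the 0.20 of the dimmer one was within the error of 0.22 given above.

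Osmr, which pairs with gp130 to bind oncostatin M, read 347.5 in Cbs null and 374.5 in control, a log2 ratio of -0.11. Its other probe set was just below the floor on both arrays, at 39.6 in Cbs null and 37.9 in control. Il6ra, the interleukin-6-binding chain, was close to the floor, at 80.7 in Cbs null and 69.7 in control (0.21), and its other probe set was below it on both arrays, at 14.0 in Cbs null and 5.6 in control. The Il6ra value therefore rests on 1 weak probe set.

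The kinase and the transcription factor downstream of gp130 were close to equal. All 3 Jak1 probe sets were slightly higher in the Cbs null uterus, with signals of 876.9, 505.8 and 64.5 in Cbs null, against 824.6, 481.5 and 58.5 in control. Their log2 ratios were 0.09, 0.07 and 0.14, each smaller than the probe-set error. Stat3 had a pair of bright probe sets that went opposite ways. In 1426587_a_at it read 1082.4 in Cbs null and 1015.5 in control (0.09), and in 1460700_at it read 645.5 in Cbs null and 684.7 in control (-0.09). The direction for Stat3 thus depended on the probe set, and its remaining one was below the floor on both arrays, at 24.2 in Cbs null and 37.1 in control. These are transcript levels, and phosphorylated STAT3, the active form, was not measured.

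Socs3, the feedback inhibitor whose promoter stretch is printed above, had the highest log2 ratio of the group. Its probe sets read 266.8, 182.6 and 128.1 in the Cbs null uterus, against 200.0, 134.4 and 106.3 in the control uterus. All 3 were higher in Cbs null, with log2 ratios of 0.42, 0.44 and 0.27, or 1.33-fold, 1.36-fold and 1.21-fold. The brightest and the next carry the suffix _x_at, given to probe sets that may bind related sequences, and probe sets of a short transcript are not independent samples. A log2 ratio of 0.42 is 1.93 times the probe-set error. Of all measured genes, 14.8% were at least as far apart, and 7.7% had a ratio at least as high. Socs3 was picked out of the group here for its value, so its place at the top is a description.

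The C/EBP genes, which STAT3 and other signals induce, did not differ in step. Cebpd read 940.3 in Cbs null and 828.0 in control in its bright probe set, 1423233_at, a log2 ratio of 0.18. Its dim probe set, 1456605_at, went the other way, at 35.6, below the floor, in Cbs null and 68.7 in control, at least 1.59-fold lower. Cebpb read 472.9 in Cbs null and 512.5 in control in its bright probe set (-0.12), and 96.8 in Cbs null and 96.6 in control in the other. The direction of Cebpd was not shared by its probe sets, and Cebpb was nearly level in both of its own.

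**Figure D2:**
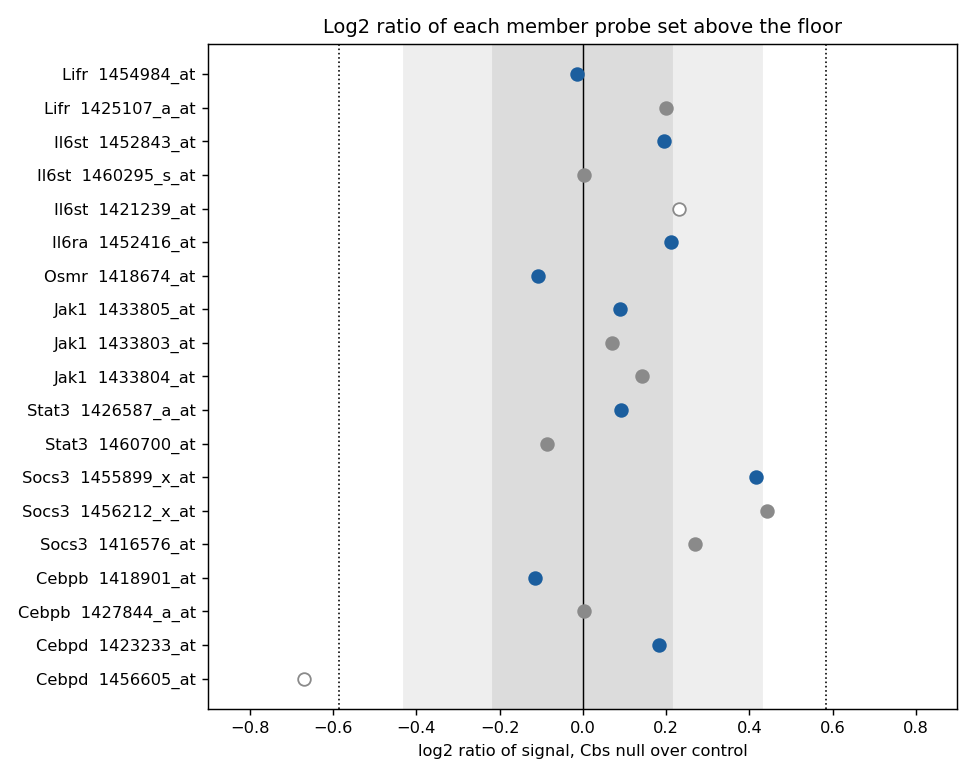
Log2 ratio of signal, Cbs null over control, for the 19 probe sets above the floor on at least 1 array. Blue marks the probe set that stands for the gene and grey the others, open circles those below the floor on 1 array, shading 1 and 2 SDs of the probe-set error, and dotted lines 1.5-fold. The 3 Socs3 probe sets lie together on the right between 0.27 and 0.44, and the dim Cebpd probe set alone passes 1.5-fold.

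Set among all measured genes, the group lay in the middle of the distribution. Of the 9 genes, 6 had a log2 ratio above 0 and 3 below, beside 53.3% of all measured genes above 0 and 46.5% below. The SD of the ratios over the 9 genes was 0.17, beside 0.32 over the 7942 genes that exceeded the floor in both uteri. No test was made of either difference.

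**Figure D3:**
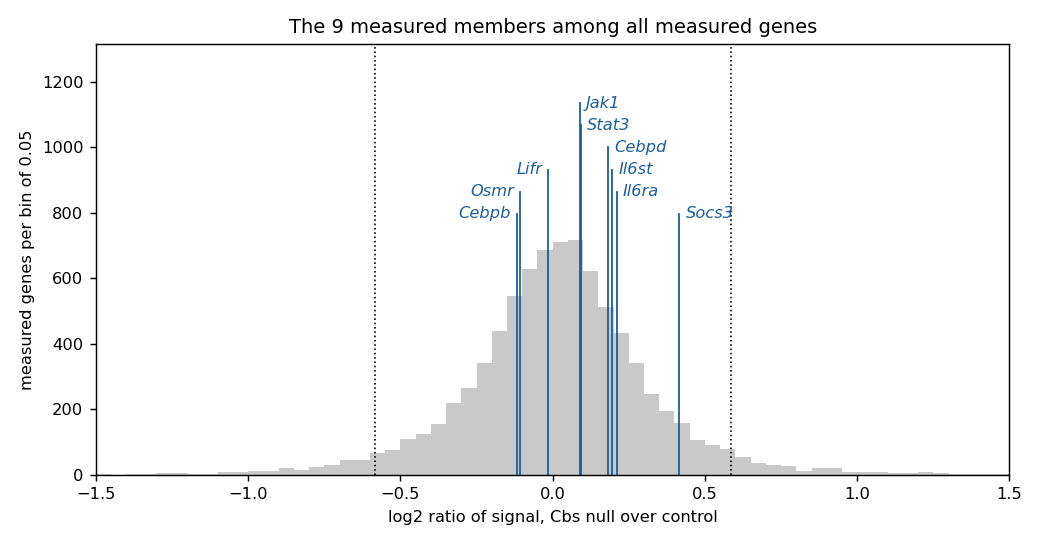
Histogram of the log2 ratio of signal, Cbs null over control, for measured genes in bins of 0.05, with a blue line for each of the 9 genes and dotted lines at 1.5-fold. Bars within 1.5 on either side are drawn, which leaves out 42 of the 8407 genes. All 9 lines fall between the dotted lines, from Cebpb at -0.12 to Socs3 at 0.42.

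Of 11 ligand and partner genes of these receptors listed, 5 had no probe set. Of the 6 that had one, 4 (Lif, Il6, Il11 and Ebi3) were below the floor on both arrays. Of all 12393 genes with a probe set, 8407 were measured. A count from 6 genes is not a result about the ligands. Lif, the ligand of Lifr, read 28.5 in Cbs null and 16.2 in control in its brighter probe set. Il6 read 10.6 in Cbs null and 4.2 in control, and Il11 read 29.5 in Cbs null and 10.9 in control. Such signals were treated as having no reliable order, so no fold is given, and a signal under the floor does not show that a transcript is missing. Of the others, Ctf1 (cardiotrophin 1) stood at 0.23. Clcf1, which encodes a cardiotrophin-like cytokine, read 154.2 in Cbs null and 93.6 in control, 1.65-fold higher, in 1437270_a_at, but 76.6 in Cbs null and 78.4 in control in 1437271_at. A weaker Clcf1 probe set read 54.3 in Cbs null and 42.1, below the floor, in control, so its probe sets did not share a direction.

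Of 7 further gp130-type receptor chains on the array, 5 were below the floor, while 8407 of all 12393 genes were measured. Il31ra stood at -0.32, and Lepr, the leptin receptor, at 0.49 in 1 probe set and 0.03 in the other above the floor. None of the 7 measured JAK and STAT genes other than Jak1 and Stat3 was 1.5-fold apart, beside 7.01% of all measured genes, with a median log2 ratio of 0.04. Jak2, which also serves gp130, read 764.9 in Cbs null and 648.4 in control (0.24), and Stat6, the interleukin-4 effector, 368.6 in Cbs null and 408.8 in control (-0.15). Of 6 measured adaptor and RAS-branch genes none was 1.5-fold apart either. At that background, counts of 0 among so few genes say nothing particular about them. Gab1, the docking protein that links gp130 to RAS and PI3 kinase signalling, stood at 0.44, and Shc1, another adaptor, at -0.12.

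Of 13 measured genes that restrain JAK and STAT signals, 2 were at least 1.5-fold higher in Cbs null, beside 3.62% of all measured genes, and none was lower by that much, with a median of 0.06. Ptpn6, the SHP-1 phosphatase of blood cells, read 163.7 in Cbs null and 87.8 in control, 1.86-fold higher, in 1456694_x_at. Its other probe set, 1460188_at, read 76.2 in Cbs null and 77.1 in control, so only the _x_at probe set differed. Pias4, a SUMO ligase that binds STATs, read 254.3 in Cbs null and 166.3 in control in its single probe set, 1.53-fold higher. The remaining C/EBP-related genes showed no 1.5-fold difference among 5 measured, beside 7.01% of all measured genes, which leaves a count of 0 uninformative, with a median of -0.14. Cebpg, a C/EBP partner without an activation domain, stood at -0.14, and Nfil3, a bZIP repressor, at -0.40.

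Genes listed as known STAT3 targets went both ways. Of 26 measured, 15 were higher and 11 lower in the Cbs null uterus, beside 53.3% and 46.5% of all measured genes. Their median log2 ratio was 0.11, or 0.06 over the 24 above the floor on both arrays. At least 1.5-fold apart were 4 higher and 3 lower, beside 3.62% and 3.39% of all measured genes, and 5 were 2-fold apart, beside 1.51%. Ltf, the secreted iron-binding lactoferrin, read 944.1 in Cbs null and 351.6 in control, 2.69-fold higher. The surface mucin gene Muc1 read 121.1 in Cbs null and was below the floor, at 41.8, in control, at least 2.80-fold higher. The direction of Muc1 was therefore set by the filter. In the other direction, the protease inhibitor gene A2m read 106.9 in Cbs null and 3510.0 in control, 32.8-fold lower, and the metalloproteinase inhibitor gene Timp1 69.3 in Cbs null and 191.5 in control, 2.76-fold lower. Each of these 4 genes has other regulators too, and the list was written with their values known, so nothing is drawn from its counts. The STAT core TTCNNNGAA, as in the Socs3 stretch above, was searched for in the 24 listed targets that have a promoter window. It was found in 4 of these genes, Bcl6, Hamp, Icam1 and Tnfrsf1b. Counted by window, that was 5 of 31, beside 8.3% of all 32851 windows, and the difference was not tested. Of the 4 genes, Bcl6 stood at 0.29, Icam1 at 0.16 and Tnfrsf1b at -0.11, and Hamp was below the floor on both arrays.

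Genes listed as answering LIF or interleukin-11 in the mouse uterus also went both ways. The list does not give the direction in which each gene answers. Of 17 measured, 11 were higher and 6 lower, beside 53.3% and 46.5% of all measured genes, with a median of 0.10. The 1.5-fold limit was passed by 4 in each direction, beside 3.62% of all measured genes higher and 3.39% lower. This list too was written with values known, so nothing is drawn from its counts. Calb1, an epithelial calcium buffer, read 333.9 in Cbs null and 28.3, below the floor, in control, at least 7.73-fold higher. The epithelial gene Sprr2f read 297.0 in Cbs null and 131.5 in control, 2.26-fold higher. The decidual prolactin gene Prl8a2 read 5.8, below the floor, in Cbs null and 424.4 in control, at least 9.82-fold lower, and Fst, the activin-binding follistatin, 256.2 in Cbs null and 1011.7 in control, 3.95-fold lower. Of the 17, 5 counted as measured through 1 array only, so their direction was set by the filter. Calb1, Prl8a2 and Ptgs2, which passed the 1.5-fold limit, are among these. The 12 above the floor on both arrays had a median of 0.08.

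Markers of several cell types differed between the uteri. All 9 measured epithelial markers were higher in the Cbs null uterus (median 0.63, summed signal 5689.5 in Cbs null and 3743.7 in control). Among them were the keratin genes Krt8 at 0.63 and Krt18 at 0.70. Cldn4 passed the floor in Cbs null alone, so its direction was set by the filter. The 8 above the floor on both arrays had a median of 0.59. All 10 macrophage and dendritic markers were higher (median 0.54, summed signal 7860.6 in Cbs null and 5416.4 in control), with Cd74 at 0.49. All 9 measured smooth muscle markers were lower (median -0.52, summed signal 31611.5 in Cbs null and 39078.0 in control), with Acta2 at -0.07. Of all measured genes, 53.3% were higher and 46.5% lower. At least 1.5-fold higher were 5 epithelial markers (Cldn4 among them) and 3 macrophage and dendritic markers, beside 3.62% of all measured genes. At least 1.5-fold lower were 4 smooth muscle markers, beside 3.39%. Endometrial stroma markers were split, with 6 of 10 higher (median 0.15, summed signal 32947.4 in Cbs null and 33299.4 in control). Endothelial markers were split, with 5 of 10 higher (median 0.03). Of 7 measured uterine natural killer markers, the granzyme genes Gzma, Gzmb and Gzmc passed the floor in control alone, so their direction was set by the filter. They read 39.7, 12.6 and 6.5 in Cbs null and 113.2, 177.8 and 126.2 in control. Those are lower by at least 2.62-fold, 4.12-fold and 2.92-fold. The 4 above the floor on both arrays had a median of -0.009 and ran from -0.22 for Prf1 to 0.73 for Klra8. Klra8 rests on 1 probe set with the suffix _x_at. Prf1, at 43.5 in Cbs null and 50.6 in control, lay close to the floor of 43.2. A single lymphocyte marker, a single neutrophil marker and 3 liver and ovary markers were measured. In bulk tissue, fewer cells of a type and less RNA per cell cannot be told apart, and the part of these shifts in the values above was not tested. Markers at 0 numbered 0 in each of these lists on both arrays. Epithelial, stromal and smooth muscle markers were above the floor in both uteri, apart from Synpo2 on both arrays and Cldn4 in control, which were below it.

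**Figure D4:**
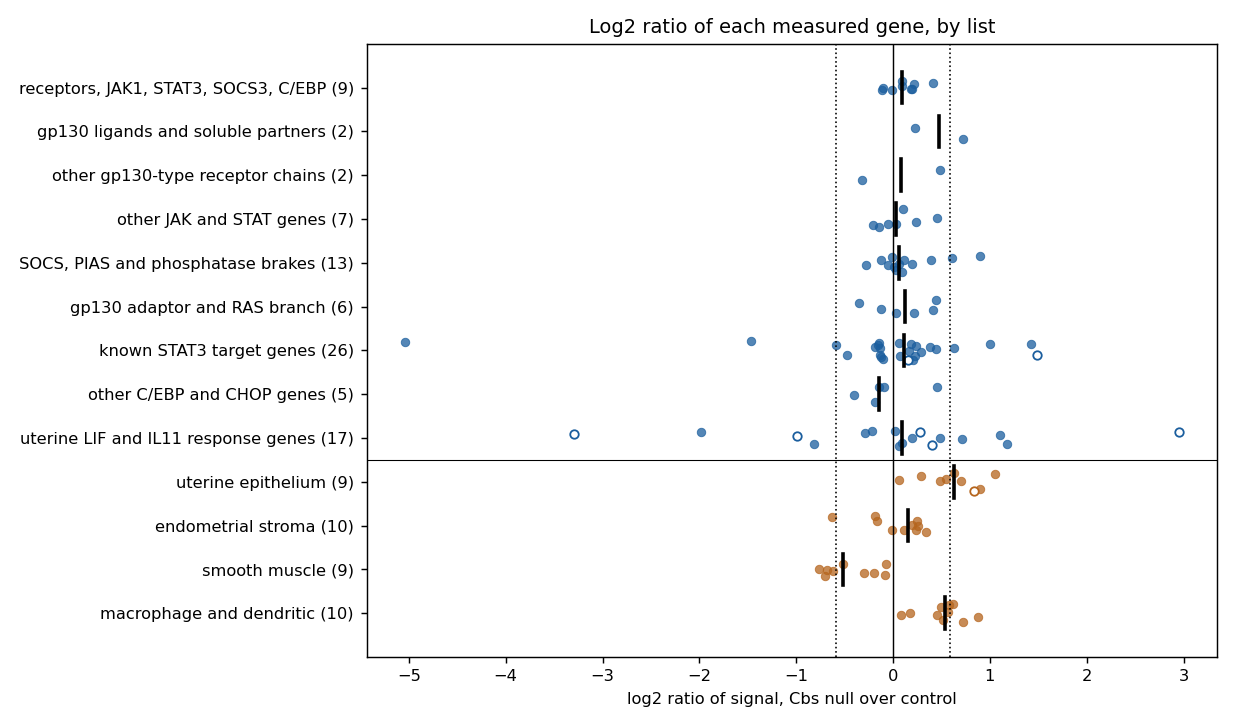
Log2 ratio of signal, Cbs null over control, for each measured gene of the pathway lists (blue) and of the cell type marker lists (brown), with the number measured in brackets. Black bars are list medians, open circles genes below the floor on 1 array, and dotted lines 1.5-fold. The pathway genes cluster near 0, the STAT3 and uterine response lists spread from -5.04 (A2m) to 2.95 (Calb1), and the epithelial and smooth muscle lists lie on opposite sides of 0.

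Cbs itself was dim on both arrays, and neither probe set could be placed relative to the mutation. Its brighter probe set read 42.6 in Cbs null, just below the floor, and 79.8 in control, and its other probe set 25.1 in Cbs null and 39.8 in control. Both arrays had the same overall scale, with median signals of 75.6 in Cbs null and 74.55 in control. Of 7 trophoblast and embryo genes on the array, none was above the floor on either.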

How the data were processed

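Biotinylated cRNA was made from 2 microg of total RNA of each uterine sample and hybridised, per the labels' protocols. The authors deposited 1 linear signal intensity per probe set and array. The submitters' processing notes name GCOS 1.4. How probes were summarised and scaled is not given in the sources used. Trimmed means (2% off each end) were 200.1 on both arrays, so values were used as deposited, and a difference can be read only against the other genes of the array.

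Of 22690 probe sets, 20380 had 1 gene symbol, 691 several, 1555 none and 64 were controls. No probe set of the pathway genes was shared with another gene. A gene was represented by its probe set of highest mean log2 signal. The floor was the 40th percentile of all signals (43.2), weaker signals were set to it, and a fold against such a value is a lower bound. With 1 array per group there was no test. Genes were described by folds of 1.5 and 2, and the number of arrays limits the precision. The steps were tested on simulated data. Changes larger than 2-fold were planted there in genes well above the floor. That simulation does not cover differences near 1.5-fold or signals near the floor. Members, lists and markers were chosen with earlier results of these data known. Named genes were every member, Cbs, and from each pathway list up to 4 genes at least 1.5-fold apart or else the 2 of highest signal, and of the cell type lists up to 2 of highest signal. Others, such as Lif, Il6, Il11, Ebi3, Ctf1, Synpo2, Cldn4 and the targets with a STAT core, were chosen with their values in view. Python 3.11.15, pandas 2.3.3 and numpy 2.4.6 were used. Alternatives were median centring, quantile normalization, other floors, a pseudocount of 16, the mean over probe sets, and leaving out suffixed probe sets.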

Additional observations from a re-analysis of the deposited data

How the results depend on the processing

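Under all 7 alternatives, the count of pathway genes at least 1.5-fold higher, at least 1.5-fold lower and 2-fold apart was 0, and the median log2 ratio lay between 0.07 and 0.09. At the 60th percentile as floor, Il6ra was no longer measured. Socs3 ranged from 0.27 to 0.42. Cebpd went to -0.24 as a mean over its probe sets, Stat3 to -0.09 without suffixed probe sets, and Lifr to 0.09 as a mean, while the other 5 measured genes kept their direction under every alternative that measured them. Without suffixed probe sets, Clcf1 went to -0.034 and Ptpn6 to -0.017, since each then rests on its other probe set. The share of all measured genes at least 1.5-fold apart was 13.7% at the 20th percentile and 4.67% at the 60th, against 7.01%. No paired analysis was possible because each group has 1 array. The lower bounds shrank with a floor at the 60th percentile, to 0.01 for Muc1, 1.47 for Calb1 and -1.82 for Prl8a2, and Timp1 went to -0.67, as the weaker signal is raised further. Signals near the floor limit Il6ra, Clcf1 and the dim probe set of Cebpd.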
